A study of Mus musculus with 15 samples.

Results

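Gene expression was compared between H2 hyperplasias and normal lung cells of mice that carry an oncogenic knock-in allele. Of the 15 Affymetrix arrays of the series, 12 entered the comparison, the 4 whose source name gives the H2 subtype and the 8 titled as normal samples. The other 3 arrays, of H1 hyperplasias, were left out of the group means. All mice carried this allele, which also encodes a colour marker, and all had been infected with an adenovirus carrying Cre recombinase 3 months before the cells were cut from frozen lung sections by laser capture microdissection. Lesions of about 500 cells each were taken as hyperplasias, and normal cells were taken from the same sections, so that the normal cells came from lungs with the same allele and the same infection. The labels give lung as the tissue and no cell type for the normal cells, and they give neither the number of mice nor which arrays share a mouse. The basis of the H1 and H2 assignment is not given in the sources used here. The titles call each array a biological replicate, and if several arrays of a group come from 1 mouse the p-values are too small.

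Hyperplasia is an early step in the growth of lung adenocarcinoma, in which cells of the alveolar epithelium multiply while still forming a lining. Alveolar type 2 (AT2) cells, which secrete surfactant and renew the alveolus, are one known origin of such lesions. Active Ras proteins pass their signal through the kinases Raf, MEK and ERK, and ERK in turn induces inhibitors of its own pathway, such as Sprouty and Spred proteins and dual specificity phosphatases. A captured patch of lung also holds type 1 cells, capillary endothelium, fibroblasts and macrophages.

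Levels are log2 signals of the probe set that stands for a gene, so that a difference of 1 is a 2-fold change, and ± after a difference is its standard error. Calls rest on limma, a linear model fitted to all 18193 genes, with a threshold of 0.05 on the Benjamini-Hochberg adjusted p. A signal below 3.99, the median over all probe sets, was taken as near background, where sizes are poorly determined. Values on the H2 arrays are given in the order of replicates 1, 5, 6 and 7. The arrays differed in spread. The SD of log2 signals over genes was 1.64 ± 0.118 (SD, n = 4) on H2 arrays, from 1.52 to 1.78, and 1.38 ± 0.179 (n = 8) on normal arrays, from 1.14 to 1.67 (exact two-sided permutation p = 0.0242, adjusted p = 0.0606 over 3 array measures). The 3′ to 5′ probe difference of Actb, a sign of RNA quality, was -0.00278 ± 0.228 (SD, n = 4) on H2 and -0.634 ± 0.621 (n = 8) on normal arrays (exact two-sided permutation p = 0.0404, adjusted p = 0.0606). That of Gapdh was 3.32 ± 0.862 and 2.53 ± 0.59 (exact permutation p = 0.125, also its adjusted p). Normal replicate 2 stood apart, with the narrowest spread and a mean correlation of 0.669 with the other normal arrays, whereas the median over pairs of normal arrays was 0.818. The labelled tissue showed in both groups. The AT2 list had 0 of its 21 measured genes below 3.99 in either group, and the surfactant protein gene Sftpc averaged 9.94 in normal cells and 11.40 in H2. The club cell secretoglobin Scgb1a1 was near background, at 3.36 in both groups.

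In H2, 525 genes were higher and 90 lower than in normal cells, 2.89% and 0.495% of the genes tested, or 3.38% together. Of these, 333 higher and 54 lower genes had groups whose values did not overlap. Such separation was seen for 2.7% of all genes with H2 above and 1.08% with H2 below, 3.79% in all. The higher genes differed by a median of 1.73, and 184 of them by more than 2. The lower genes differed by a median of -1.08, and 4 of them by more than 2. Among the lower genes, 38 of 90 had an H2 mean below 3.99, and among the higher genes 88 of 525 had a normal mean below it. Without adjustment, a limma p under 0.05 was found for 2311 of the 18193 genes upwards and 1582 downwards. At the threshold, Cs (1.86) and Spint1 (0.97) were among the last genes called and Rcbtb2 (-0.68) and Hsdl2 (1.28) the first not called, all with adjusted p near 0.05. The count depended on single arrays. It rose to 1104 higher and 274 lower without normal replicate 3 and to 821 and 193 without normal replicate 1, and without normal replicate 6 it was 611 and 159. It fell to 316 and 43 without normal replicate 4, 313 and 37 without 5, 294 and 31 without 7, and 317 and 46 without 8. Among H2 arrays it fell to 422 and 48 without replicate 1, 284 and 35 without 5, 108 and 16 without 6, and 102 and 17 without 7. It was 74 and 18 with the Actb 3′ to 5′ difference in the model and 39 and 10 with that of Gapdh, and the part of RNA quality in the calls was not tested.

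**Figure D1:**
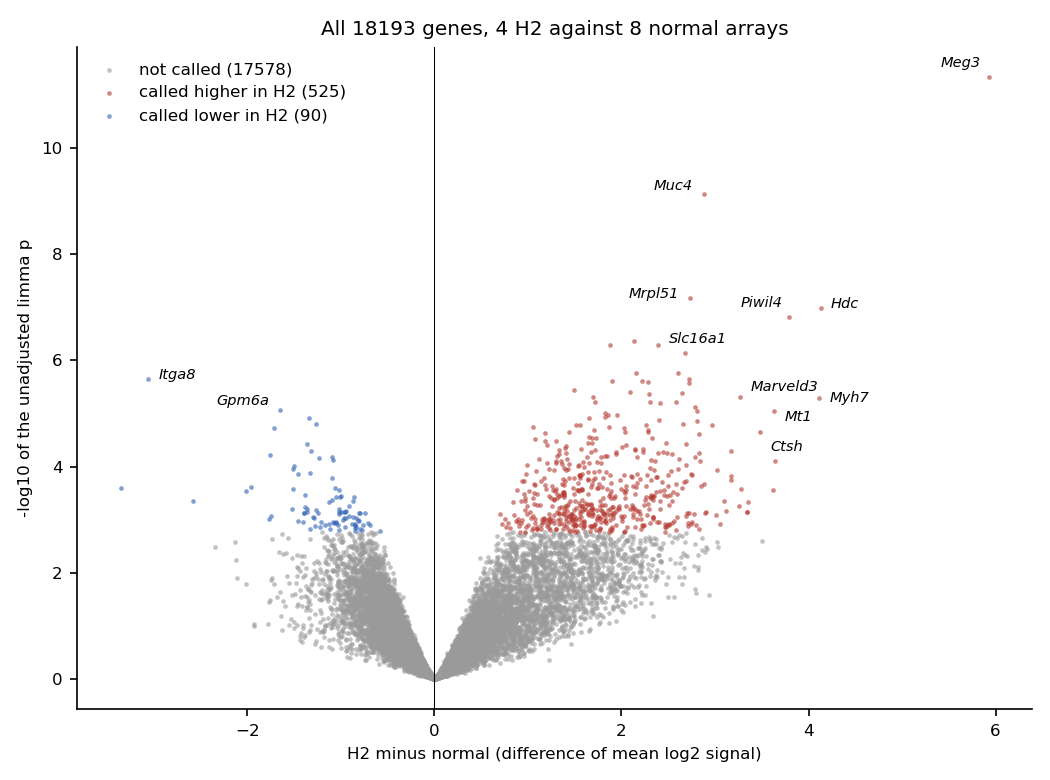
Difference of mean log2 signal, H2 minus normal, on the horizontal axis and -log10 of the unadjusted limma p on the vertical axis, for 18193 genes from 4 H2 and 8 normal arrays. The 525 genes called higher spread further from 0 than the 90 called lower, and Meg3 stands furthest out at 5.93.

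Some genes kept their call under every setting tried. Under all 14 alternative analyses, and whichever 1 of the 12 arrays was omitted, the call held for 8 higher genes (Meg3, Hdc, Piwil4, Muc4, Mpzl2, Mrpl51, Rai14 and Fam102b) and for 1 lower gene (Itga8). Fam102b, Mrpl51 and Rai14 were singled out for this after their values were seen. In the 12 fits that left out 1 array, 73 of the 525 higher genes and 8 of the 90 lower genes were called throughout.

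Meg3, an imprinted long non-coding RNA, had the largest difference. It lay between 3.86 and 6.03 (median 4.34) on the normal arrays and at 10.40, 10.53, 9.92 and 10.96 on the H2 arrays. Every H2 array was above the highest normal array, replicate 1. The rise was 5.93 ± 0.32, or 60.8-fold (limma adjusted p = 8.374e-08). Its 10 other probe sets ranged from -0.34 to 4.13, of which 9 were above 0 and 2 were called higher. Of the other 15 measured imprinted genes, 0 were called by limma, and 3 were higher at an unadjusted p under 0.05. Rian, transcribed from the same imprinted cluster, averaged 6.23 in normal cells and 8.21 in H2 (1.98 ± 0.75, limma adjusted p = 0.1466).

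Hdc, which makes histamine from histidine, lay between 3.53 and 6.97 (median 5.10) on the normal arrays and at 8.70, 9.30, 9.36 and 9.77 in H2. All H2 arrays were above all normal arrays, and the rise was 4.13 ± 0.45 (17.5-fold, limma adjusted p = 0.0004689). Its second probe set differed by 0.20. Hdc is also a marker of mast cells and basophils. Of the 11 measured genes of that list Hdc was the 1 gene called higher. The proteases Cpa3 (3.01 in normal cells and 3.12 in H2), Mcpt4 (3.04 and 3.10) and Tpsab1 (2.82 and 3.13) were near background in both groups. In the list, 7 of 11 genes differed downwards, 2 of them at an unadjusted limma p under 0.05. 1 of these 2 was Gata2 (5.71 in normal cells and 5.04 in H2). The mean over the list, Hdc included, ranged from 4.02 to 4.24 on normal arrays and from 4.08 to 4.33 on H2 arrays. Piwil4, a member of the Argonaute family known from germ cells, rose by 3.79 ± 0.43 (13.8-fold, limma adjusted p = 0.0005526). It lay between 3.00 and 5.16 (median 4.04) on normal arrays and at 7.64, 6.94, 7.62 and 8.98 in H2, again without overlap. The other probe set of Piwil4 differed by -0.13. Of 9 Piwi, Argonaute and small RNA processing genes, Ago1 was the other gene called higher (1.42 ± 0.35, limma adjusted p = 0.03605), with H2 replicate 1 at 6.14 inside the normal range of 4.63 to 6.43.

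Muc4, a membrane mucin of epithelial surfaces, had the smallest standard error of these genes. Normal arrays lay between 5.30 and 6.26 (median 5.89) and H2 arrays at 8.87, 8.26, 8.97 and 8.68, a rise of 2.88 ± 0.22 (7.35-fold, limma adjusted p = 6.729e-06). Its 2 other probe sets differed by -0.05 and 0.31. Of the 9 mucin and mucous cell genes Muc4 alone was called, and the secreted mucin genes Muc5ac (4.41 in normal cells and 4.33 in H2) and Muc5b (4.45 and 4.09) differed by -0.09 and -0.36. Mpzl2, an adhesion molecule of epithelial cells, lay between 2.70 and 5.00 (median 3.21) on normal arrays and at 5.80, 5.94, 6.63 and 5.83 in H2 (2.73 ± 0.38, limma adjusted p = 0.0028). The highest normal value was that of replicate 2, and the normal mean of 3.32 was near background. Mrpl51, a mitochondrial ribosomal protein, lay between 5.64 and 6.83 (median 5.98) on normal arrays and at 8.93, 8.88, 8.75 and 9.10 in H2 (2.73 ± 0.29, limma adjusted p = 0.0004044). Its 2 other probe sets did not move with it, at -0.43 and -0.05. Rai14, an actin-associated protein, rose by 2.68 ± 0.34 (limma adjusted p = 0.001468), with 8.63, 8.55, 9.17 and 8.68 in H2 above a normal range of 5.40 to 7.43. Fam102b rose by 2.31 ± 0.35 (limma adjusted p = 0.004056), and both of its probe sets differed in that direction.

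**Figure D2:**
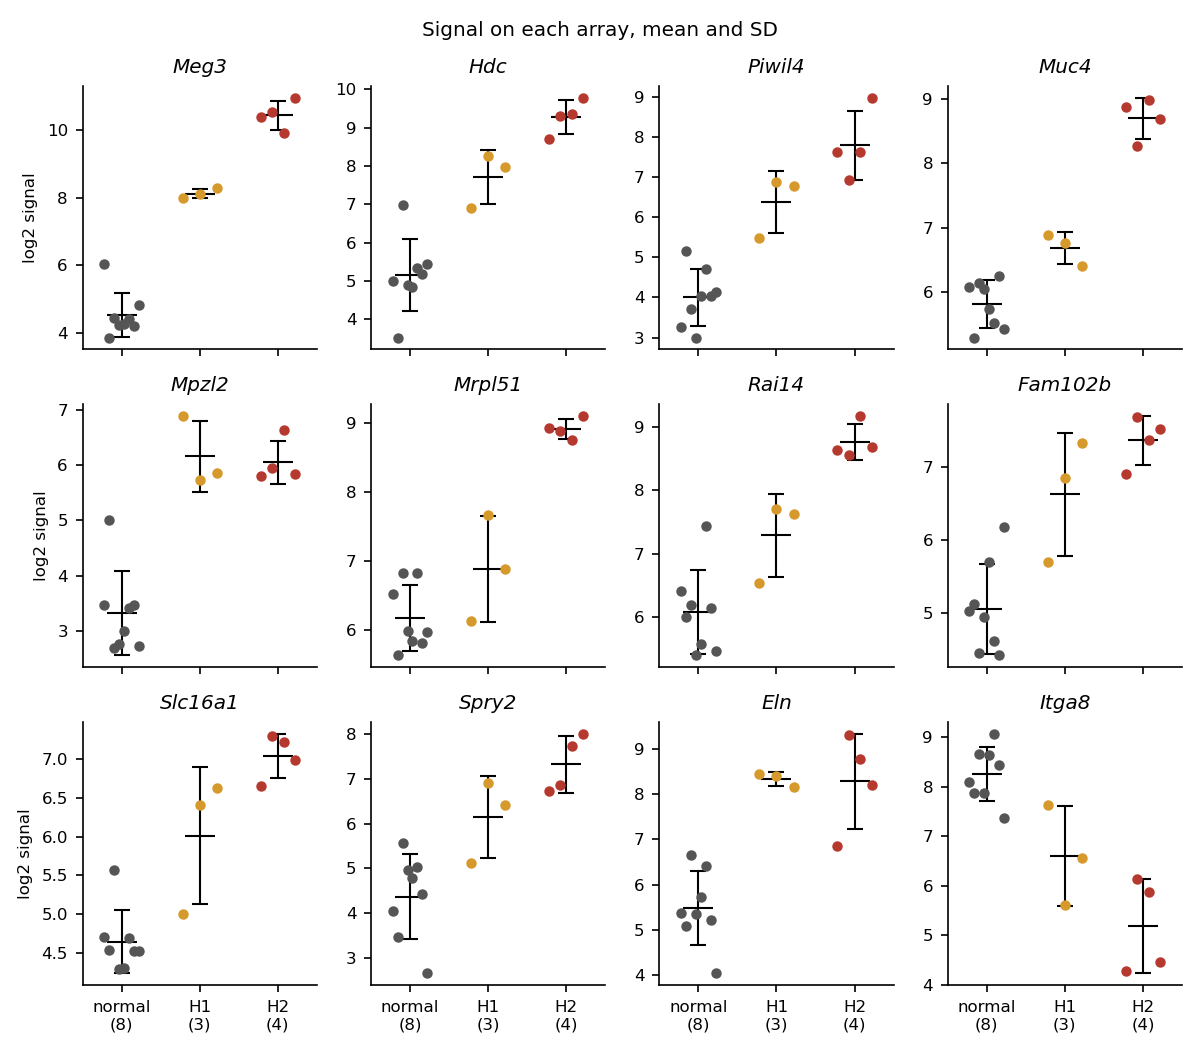
Log2 signal of 12 genes on each of the 8 normal, 3 H1 and 4 H2 arrays, with the group mean and SD as bars. For each gene the H2 points lie beyond all normal points, above them for 11 genes and below them for Itga8.

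Further genes with large rises fall into several roles. Myh7, the slow muscle and cardiac myosin heavy chain, lay between 3.77 and 8.26 (median 5.32) on normal arrays and at 8.82, 9.09, 9.44 and 10.48 in H2 (4.12 ± 0.61, limma adjusted p = 0.003861). The groups did not overlap, and the highest normal value was that of replicate 3. Myh7 was the 1 gene called of 14 cardiac muscle genes, of which 9 were near background in both groups, among them Myl7 (3.02 in normal cells and 2.75 in H2) and Nppa (2.82 and 2.52). Ctsh, a lysosomal protease that AT2 cells use to process surfactant protein, rose by 3.48 ± 0.59 (11.2-fold, limma adjusted p = 0.007315). It lay between 3.69 and 7.59 on normal arrays and at 9.63, 9.99, 9.77 and 9.91 in H2, and its second probe set differed by 2.65. Clu, an extracellular chaperone, rose by 3.18 ± 0.58 (limma adjusted p = 0.01121), and 2 of its 3 other probe sets were called as well. Tc2n, which has C2 domains, rose by 3.64 ± 0.69 (limma adjusted p = 0.01265), and all 3 of its other probe sets were called higher, by 1.90 to 3.06.

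Metabolic enzymes were also among the largest rises. Idh1, which makes NADPH in the cytosol, lay between 2.31 and 6.54 on normal arrays and at 6.72, 7.71, 7.83 and 9.41 in H2 (3.26 ± 0.75, limma adjusted p = 0.03081). Hibadh, a mitochondrial enzyme of valine breakdown, rose by 3.28 ± 0.70, and Adk, which phosphorylates adenosine, by 2.85 ± 0.60 (limma adjusted p = 0.02188 and 0.0209). For Idh1 the groups were separate, with H2 replicate 1 lying closest to the normal arrays. Genes of RNA and chromatin handling in this set were Cnot7 (3.62 ± 0.78), a deadenylase, Cpsf3 (3.35 ± 0.80), which cuts pre-mRNA 3′ ends, Tsr1 (3.12 ± 0.74), a ribosome assembly factor, and H2az1 (3.05 ± 0.78), a histone variant. Their limma adjusted p-values ranged from 0.02188 (Cnot7) to 0.0421 (H2az1), and they were called in 9, 6, 5 and 4 of the 12 fits without 1 array. Cited2, a transcriptional cofactor, rose by 3.10 ± 0.70 (limma adjusted p = 0.02719), Enc1, an actin-binding protein, by 3.17 ± 0.65 (0.01817) and C1qbp, a mitochondrial protein, by 2.89 ± 0.69 (0.03451). Prr15 (3.18 ± 0.64) and Rwdd4a (3.02 ± 0.60) complete the 25 genes named by size together with those described by role in the following paragraphs. Of the 103 named genes that were called, some lost the call when 1 array was left out, 69 without H2 replicate 6, 69 without H2 replicate 7, 47 without H2 replicate 5 and 31 without H2 replicate 1. Leaving out a normal array ended between 0 (replicates 1 and 3) and 38 (replicate 7) of these calls.

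Itga8, the integrin chain that alveolar fibroblasts carry, fell furthest among genes without overlap. Normal arrays lay between 7.36 and 9.07 (median 8.27) and H2 arrays at 4.28, 6.13, 5.88 and 4.47. The fall was -3.06 ± 0.42, or 8.34-fold (limma adjusted p = 0.0028), and its second probe set differed by -2.08. Cyp4b1, a lung cytochrome P450 whose groups overlapped, differed by -3.36 and is named here after its value was seen. Lrat, which stores retinol as esters, fell by 1.77 on the log2 scale (limma adjusted p = 0.03775), from a normal range of 4.19 to 6.88 to 2.88, 3.16, 3.87 and 3.93. Abca8a, a lipid transporter, lay at 3.33, 4.34, 2.72 and 1.98 in H2 and from 4.37 to 6.12 on normal arrays (-1.97 ± 0.42, limma adjusted p = 0.02156), and Fmo1, a flavin monooxygenase, at 3.15, 3.76, 3.38 and 2.90 against 3.78 to 6.28 (-1.75 ± 0.42, limma adjusted p = 0.03574). For Lrat, Abca8a and Fmo1 the H2 values were near background, so that the sizes are poorly determined.

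Gpm6a, a membrane glycoprotein of mesothelium and neurons, fell by 1.66 on the log2 scale (limma adjusted p = 0.005101), and the other 5 mesothelial genes measured were not called. Prickle2, a planar polarity protein, lay at 4.02, 4.58, 4.19 and 3.75 in H2 below a normal range of 4.83 to 6.27 (-1.33 ± 0.27, limma adjusted p = 0.01639). Zbtb20, a transcriptional repressor, fell to 5.43, 5.25, 6.23 and 6.58 from 6.62 to 7.55 (-1.36 ± 0.24, limma adjusted p = 0.009801), although 4 of its 8 other probe sets differed upwards. Myzap, Tox2, Cacna2d2, Cnnm3, Slc38a9, Med1, Epha5 and Gcap8 were the other genes named by size among the lower ones, with differences from -2.01 (Gcap8) to -1.38 (Epha5). The H2 means of Gcap8, Myzap, Slc38a9 and Epha5 were near background, and the second probe set of Tox2 differed by 0.23. With the most variable probe set Med1 turned to 0.20.

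Genes that restrain ERK signalling were compared as a group, since active ERK is known to induce them. Of 15 measured inhibitors, 5 rose and 1 fell, beside 3.38% of all genes called. The median difference was 0.87, beside -0.04 over all genes and 0.87 over 6 widely expressed reference genes. Spry2, a Sprouty protein that blocks signalling from receptors to Ras, lay between 2.66 and 5.58 (median 4.61) on normal arrays and at 6.73, 6.86, 7.73 and 8.02 in H2 (2.96 ± 0.49, limma adjusted p = 0.006614). Spred1, which brings neurofibromin to the membrane, lay between 4.31 and 6.81 (median 5.59) and at 6.98, 8.24, 8.39 and 9.35 (2.69 ± 0.47, limma adjusted p = 0.009801). Both were higher on every H2 array than on any normal array and were called in all 12 fits without 1 array. The second probe set of Spry2 differed by 0.12. The 7 others of Spred1 differed by 0.07 to 2.64, and 1 of them was called higher. Spred2 rose by 1.30 ± 0.28 (limma adjusted p = 0.02188), the ERK phosphatase Dusp6 by 2.32 ± 0.52 (0.0249) and Errfi1, an inhibitor of the EGF receptor, by 2.12 ± 0.51 (0.03486). The 4 other probe sets of Spred2 lay between -0.87 and 0.13. Nf1, the GTPase activator that turns Ras off, fell from between 4.51 and 5.68 on normal arrays to 3.86, 3.96, 4.21 and 4.10 (2-fold, SE 0.22, limma adjusted p = 0.02486), while its 2 other probe sets differed by -0.08 and -0.01. Spry4 (-0.15), Spred3 (-0.16) and Dusp5 (-0.38) were not called. With array spread in the model the list's median was 0.48 and 0 of its genes were called, and Spry2 differed by 1.83 (limma adjusted p = 0.05263).

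Among 19 ERK target genes, 3 rose, beside 2.89% of all genes called higher. Phlda1 lay between 2.90 and 4.72 on normal arrays and at 4.98, 6.36, 7.04 and 6.03 in H2 (2.14 ± 0.39, limma adjusted p = 0.01096). The immediate early factor Egr1 rose by 1.83 ± 0.46 (limma adjusted p = 0.04044) and the membrane protein Emp1 by 0.97 ± 0.25 (0.0438), and for each of them H2 and normal values overlapped. Fos (-0.70), Etv4 (-0.66) and Etv5 (1.15 ± 0.87) were not called. The median of the target list was 0.71, and it turned to -0.08 with array spread in the model, with 0 genes called. Of 13 measured genes of the Ras, Raf and MEK core, 0 were called by limma, with 2 higher at an unadjusted p under 0.05, and the median of 0.10 turned to -0.50 with array spread in the model. The EGF receptor ligand Tgfa rose by 0.81 ± 0.21 (limma adjusted p = 0.04458), with its 2 other probe sets at -0.51 and -0.09, and the ligand Epgn fell, near background in both groups (-0.85 ± 0.22, 0.04227).

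Over all 18193 genes, 8424 had a difference above 0 and 2.89% were called higher. All 21 measured AT2 genes were higher in H2, with a median difference of 1.94, and 6 of them passed the test. Besides Ctsh these were the surfactant lipid transporter Abca3, the secreted chitinase-like protein Chil1, the calcium-binding S100g, the matrix protein Egfl6 and the transcription factor Cebpa. Abca3 lay between 4.08 and 7.24 (median 5.81) on normal arrays and at 8.46, 7.23, 8.08 and 8.38 in H2, so that H2 replicate 5 fell just inside the normal range (2.35 ± 0.52, limma adjusted p = 0.02486). Its 2 other probe sets differed by 0.03 and 0.14. Chil1 rose by 2.31 ± 0.51 (limma adjusted p = 0.0249), Cebpa by 2.23 (0.04292) and Egfl6 by 1.94 (0.03365), each with overlapping groups. The surfactant protein genes were not called. Sftpa1 averaged 9.66 in normal cells and 12.15 in H2, Sftpd 7.41 and 10.04, Sftpb 7.09 and 9.10, and Sftpc 9.94 and 11.40, with limma adjusted p from 0.08175 (Sftpd) to 0.4785 (Sftpc). The normal arrays varied widely in this list, with a mean over its genes from 4.95 to 8.69, and the H2 arrays, from 8.01 to 9.19, overlapped with them. Widely expressed reference genes also sat higher in H2, with a median of 0.87 over 6 genes. With array spread in the model the AT2 median was 0.38, with 1 gene called, and that of the reference genes was -0.20. Against only the 3 normal arrays of widest spread, a comparison added after the data were seen, the AT2 median was 0.71 and that of the reference genes -0.07. The part of array spread in these differences was not tested.

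Type 1 (AT1) cells form the thin gas exchange surface. Of 17 AT1 genes, 0 were called by limma, with an unadjusted p under 0.05 for 1 in the upward and 2 in the downward direction, and the median was -0.11. Members differed in both directions, with the water channel Aqp5 at 1.79 ± 0.57 and the small GTPase partner Rtkn2 at -1.58 ± 0.48 (limma adjusted p = 0.09004 and 0.07739). With array spread in the model the median was -1.33 and 6 AT1 genes were called lower, among them Rtkn2 at -2.60. Of 12 club cell genes, Aldh1a7 rose by 2.26 ± 0.50 and Cyp2f2 by 1.57 ± 0.36 (limma adjusted p = 0.02486 and 0.03081), while the defining secretoglobins Scgb1a1, Scgb3a1 (4.40 and 4.22) and Scgb3a2 (3.46 and 3.19) were low and not called. Over all genes 2.89% were called higher.

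Of 6 simple epithelial keratins, which form the filaments of single-layered epithelia, all were higher and 3 were called, with a median of 1.43. Over all genes 2.89% were called higher. Krt8 lay between 3.36 and 6.70 (median 4.40) on normal arrays and at 7.03, 7.85, 7.80 and 7.42 in H2 (2.83 ± 0.48, limma adjusted p = 0.007533), and its 2 other probe sets were called too, at 2.40 and 2.52. Its filament partner Krt18 rose by 2.33 ± 0.57 (limma adjusted p = 0.03668), from between 3.70 and 7.21 to 7.91, 8.35, 8.48 and 8.82. Krt23 rose by 1.79 ± 0.42 (limma adjusted p = 0.03308), with H2 replicate 1 at 4.83 inside the normal range. The keratin median was 0.51 with array spread in the model, and against the 3 widest normal arrays it was 0.75, with 0 genes called in either.

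Of 26 junction and adhesion genes, 4 rose and 0 fell, with a median of 0.40, beside 3.38% of all genes called. Marveld3, a tight junction protein, lay between 1.83 and 3.69 on normal arrays, near background, and at 6.76, 5.37, 4.72 and 7.31 in H2 (3.27 ± 0.48, limma adjusted p = 0.003861), while its 2 other probe sets differed by -0.75 and -0.03. E-cadherin (Cdh1) rose by 1.88 ± 0.39 (limma adjusted p = 0.02003), to 7.73, 7.62, 8.49 and 8.34 above a normal range of 4.25 to 7.02, of which normal replicate 2 held the lowest value. Desmoplakin (Dsp) rose by 1.41 ± 0.35 (limma adjusted p = 0.03732) and overlapped. Epcam, at 2.78 ± 0.79 (0.06471), and Cldn18, at 0.53, were not called. Regulators of epithelial transcription and splicing had a median of 1.24, with 3 of 9 called. Elf5, an ETS factor, rose from between 2.79 and 3.77 to 4.72, 5.01, 4.58 and 6.16 (1.82 ± 0.29, limma adjusted p = 0.005863). Grhl2, which maintains epithelial junction genes, rose from between 4.63 and 6.37 to 7.53, 7.02, 7.30 and 7.23 (1.94 ± 0.36, limma adjusted p = 0.01121), although its 3 other probe sets lay between -0.38 and -0.06. Ehf rose by 1.51 ± 0.38 (limma adjusted p = 0.04222). The median of these regulators was 0.99 with array spread in the model and 1.34 against the 3 widest normal arrays, whereas that of the junction list was 0.03 and 0.16.

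Of 16 lung lineage and progression factors, Id2, Foxa2 and Sox4 rose, beside 2.89% of all genes called higher. Id2, an inhibitor of differentiation factors that marks the tips of the growing lung, lay at 6.14, 7.83, 7.52 and 8.68 in H2, its lowest value just above the normal maximum of 6.12 (2.27 ± 0.37, limma adjusted p = 0.006614). Its 2 other probe sets differed by 0.03 and 0.65. Foxa2, a factor of lung epithelial differentiation, lay between 4.80 and 5.93 on normal arrays and at 6.50, 6.33, 6.72 and 6.96 (1.30 ± 0.23, limma adjusted p = 0.009392). Sox4 rose by 2.33 ± 0.57 (limma adjusted p = 0.03732), though 4 of its 7 other probe sets did not differ upwards. Nkx2-1 (0.22), Hnf4a (0.23) and Hmga2 (-0.33) were not called.

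**Figure D3:**
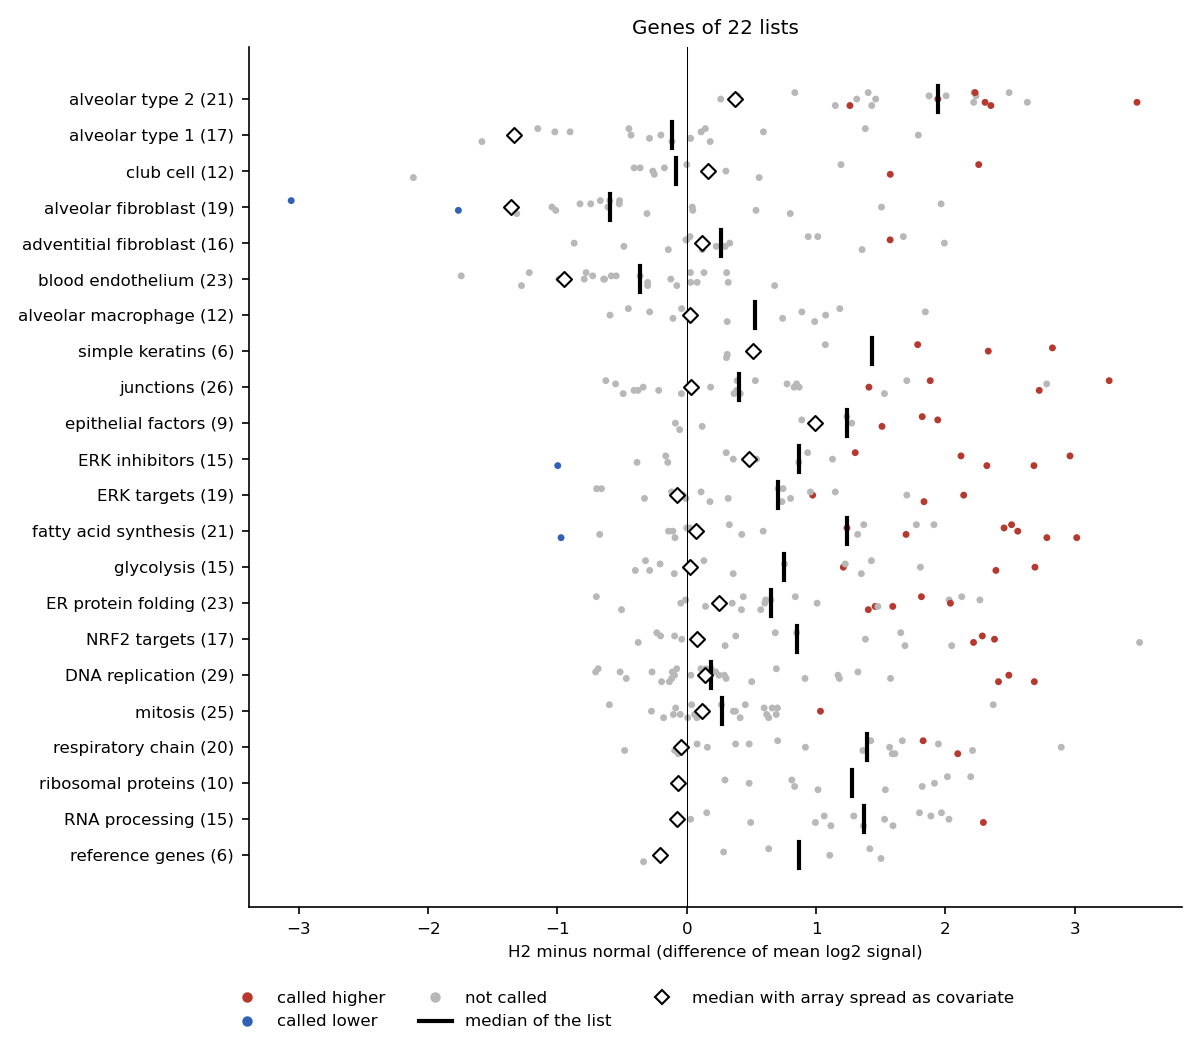
Difference of mean log2 signal, H2 minus normal, of each measured gene of 22 lists, with the number of genes in brackets, the list median as a bar and the median with array spread as covariate as a diamond. The AT2, keratin, fatty acid and widely expressed lists have medians above 0 that lie nearer 0 with the covariate, and the alveolar fibroblast, endothelial and AT1 medians lie further below 0 with it.

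Genes of other cell types were compared in the same fit. In tissue pieces, fewer cells of a type and less RNA per cell cannot be told apart. Of 19 alveolar fibroblast and lipofibroblast genes, 13 were lower in H2 and 2 were called, Itga8 and Lrat, with a median of -0.59. Over all 18193 genes, 9769 had a difference below 0 and 0.495% were called lower. The factor Tcf21 differed by -1.04, the methyltransferase Inmt by -1.31 and the growth factor Fgf10 by -0.52, none of them called, and the protease Enpep by 1.97 ± 0.60 in the other direction. Of 23 endothelial genes, 16 were lower and 0 were called by limma (7 lower and 1 higher at an unadjusted p under 0.05), with a median of -0.36. Clec14a lay at 4.18, 4.88, 4.94 and 4.80 in H2, below the normal range of 4.96 to 6.54 (-0.99 ± 0.28, limma adjusted p = 0.06314), and Calcrl differed by -1.74 ± 0.63. With array spread in the model 6 genes of each of these lists were called lower, with medians of -1.36 for fibroblasts and -0.95 for endothelium. Of 21 lists with 0 calls by limma, 12 were cell type lists. They included T and NK cells (median -0.25), B and plasma cells (-0.21), neutrophils (-0.10), monocytes (-0.04), alveolar macrophages (0.53), smooth muscle (-0.11) and lymphatic endothelium (-0.79). The lymphatic median turned to 0.04 with array spread in the model. The 21 lists held 254 measured genes, and unadjusted p-values under 0.05 were found for 33 in the upward and 30 in the downward direction. Over all 18193 genes the same was found for 2311 upwards and 1582 downwards.

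Of matrix genes, 2 of 7 elastic fibre genes and 1 of 16 adventitial fibroblast genes were called higher, beside 2.89% of all genes. Elastin (Eln), the core of elastic fibres, lay between 4.04 and 6.66 (median 5.35) on normal arrays and at 6.86, 9.32, 8.77 and 8.21 in H2 (2.81 ± 0.45, limma adjusted p = 0.006416), and its second probe set differed by -0.12. Ltbp2, which binds to elastic microfibrils, rose by 1.84 ± 0.36 (limma adjusted p = 0.01605), to 6.39, 6.29, 5.82 and 5.87 above a normal range of 2.92 to 5.01. The other 5 elastic fibre genes, among them Lox (-0.14) and Fbln5 (-0.30), were not called. Of 16 adventitial fibroblast genes, Col1a2, a chain of type I collagen, was called (1.57 ± 0.37, limma adjusted p = 0.03412), and its partner chain Col1a1 averaged 6.01 in normal cells and 7.69 in H2 (limma adjusted p = 0.09452). Dcn (0.03) and Lum (0.00), other genes of such fibroblasts, did not show a difference of that size. Fn1 differed by 1.36 ± 0.39 and was not called (limma adjusted p = 0.0685). Of the 16 adventitial fibroblast genes, 12 were above 0, and 4 were higher at an unadjusted limma p under 0.05. Ddr1, a collagen receptor, lay between 4.03 and 7.75 (median 6.04) on normal arrays and at 7.97, 7.62, 8.14 and 8.18 in H2, a difference of 2.11 ± 0.67 that was not called (limma adjusted p = 0.08851).

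In lipid synthesis, 7 of 21 genes of fatty acid and glycerolipid synthesis rose and 1 fell, with a median of 1.24. Over all genes 3.38% were called. Acsl4, which activates long-chain fatty acids, lay between 5.25 and 8.09 (median 6.21) on normal arrays and at 8.31, 9.56, 9.90 and 9.01 in H2 (2.79 ± 0.52, limma adjusted p = 0.01173), and its 2 other probe sets differed by 1.48 and 2.39. Elovl1, an elongase of very long chains, rose by 3.02 ± 0.73 (limma adjusted p = 0.03524), to 10.07, 9.39, 9.78 and 9.03. Its normal range of 2.99 to 8.47 had its lowest value in replicate 2. Me1, which supplies NADPH, rose by 2.45 ± 0.54 (limma adjusted p = 0.02426), Acsl3 by 1.70 ± 0.41 (0.03486), the desaturase Scd1 by 2.56 (0.03976) and Acly, which makes cytosolic acetyl-CoA, by 2.51 (0.0422). Acaca, the first enzyme of the pathway, rose by 1.24 (0.03732), whereas fatty acid synthase (Fasn) differed by 0.43 and was not called. The desaturase Fads1 fell by 0.97 on the log2 scale (limma adjusted p = 0.03732). Of 17 cholesterol synthesis and uptake genes, 0 were called by limma (an unadjusted p under 0.05 for 2 upwards and 1 downwards), with a median of 0.01 that turned to -0.28 with array spread in the model. The fatty acid median was 0.07 with array spread in the model and 0.41 against the 3 widest normal arrays, and 0 of its genes were called in either.

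Glycolysis and lactate genes had a median of 0.76, with 3 of 15 called, beside 3.38% of all genes. Slc16a1, a transporter of lactate, gave tight groups, with normal arrays between 4.29 and 5.57 (median 4.54) and H2 arrays at 6.65, 7.29, 7.22 and 6.99. It rose by 2.39 ± 0.29 (5.25-fold, limma adjusted p = 0.001146), and its second probe set differed by -0.33. Ldhb, a lactate dehydrogenase subunit, rose from between 4.15 and 7.63 to 8.77, 8.14, 8.38 and 8.77 (2.69 ± 0.52, limma adjusted p = 0.01339), and its 3 other probe sets differed by 0.95 to 2.12. Hexokinase 2 (Hk2) rose by 1.21 ± 0.31 (limma adjusted p = 0.04158), with H2 replicates 1 and 6 inside the normal range. The glucose carrier Slc2a1, at 1.43 ± 0.40, was not called (0.06338). In polyamine metabolism, Azin1, which protects ornithine decarboxylase from breakdown, rose from between 3.70 and 6.04 to 6.99, 7.18, 8.05 and 7.11 (2.58 ± 0.39, limma adjusted p = 0.004056), and Azin2, its relative, fell by 0.80 on the log2 scale (0.04583). Ornithine decarboxylase itself (Odc1) differed by 1.58 ± 0.48 and was not called (0.07948). The glycolysis median was 0.02 with array spread in the model, with 1 gene called, and 0.43 against the 3 widest normal arrays, with 0 called. Of these genes, Slc16a1 and Azin1 stayed called with array spread in the model, at 1.86 (limma adjusted p = 0.01018) and 1.85 (0.03962).

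The secretory pathway and unfolded protein response had a median of 0.65 and 5 of 23 genes called higher, beside 2.89% of all genes. Sec61b, a subunit of the channel into the endoplasmic reticulum, lay between 4.81 and 6.80 (median 5.40) on normal arrays and at 7.82, 7.20, 7.85 and 7.40 in H2 (2.04 ± 0.34, limma adjusted p = 0.007315). Xbp1, a transcription factor of the response, rose from between 3.16 and 3.97 to 5.18, 4.24, 5.18 and 4.71 (1.40 ± 0.26, limma adjusted p = 0.01121), starting near background. The folding proteins Creld2 and Pdia4 rose by 1.81 ± 0.43 and 1.46 ± 0.35 (limma adjusted p = 0.03455 and 0.03486), and the vesicle coat protein Sec24d by 1.59 ± 0.41 (0.04567). The chaperones Hspa5 (2.13 ± 0.65) and Hsp90b1 (2.03 ± 0.70) differed as much but were not called, and the stress genes Ddit3 (0.35), Atf3 (-0.70) and Chac1 (-0.05) were not called either. The list's median was 0.25 with array spread in the model, and against the 3 widest normal arrays it was 0.49, with 0 genes called in either.

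Lists of genes that most cells use were also higher in H2. Between 0 and 10% of their genes were called, beside 3.38% of all genes. Respiratory chain genes had a median of 1.39, with Ndufa4 and Cycs called of 20. Ribosomal protein genes had a median of 1.28 with 0 of 10 called by limma (6 higher at an unadjusted p under 0.05). Splicing and ribosome assembly genes had a median of 1.37 with 1 of 15 called, Srsf6, a splicing factor at 2.29 ± 0.34 (limma adjusted p = 0.003777), and heat shock chaperones a median of 1.18 with 0 of 10 called (4 at an unadjusted p under 0.05). With array spread in the model the first 3 of these medians turned to -0.04, -0.06 and -0.08. Of lysosomal genes, the cathepsin inhibitor Cstb rose by 2.17 ± 0.43 (limma adjusted p = 0.01686).

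Metallothioneins, small proteins that bind zinc and other metals, are switched on by the factor MTF-1 at metal response elements. Mt1 lay between 1.88 and 5.06 (median 3.65) on normal arrays and at 7.52, 7.49, 6.49 and 6.83 in H2. It rose by 3.63 ± 0.56 (12.4-fold, limma adjusted p = 0.005153) from a normal mean of 3.45 near background, and its second probe set differed by -0.29. Mt2 averaged 4.54 in normal cells and 5.12 in H2 and was not called (limma adjusted p = 0.08857), nor were the other 11 genes of the metal list, such as Mtf1 (-0.22) and the zinc exporter Slc30a1 (0.40). The promoters of both genes are shown because they lie side by side on chromosome 8 and were searched for the core of the metal response element, TGCACNC or TGCGCNC, on both strands. They are RefSeq sequences of 300 bases around the annotated start, plus strand of build GRCm38.p6, at chr8:94178839-94179138 for Mt1 and chr8:94172368-94172667 for Mt2. Capitals mark the matches, and a match on the other strand reads as its reverse complement.
Mt1: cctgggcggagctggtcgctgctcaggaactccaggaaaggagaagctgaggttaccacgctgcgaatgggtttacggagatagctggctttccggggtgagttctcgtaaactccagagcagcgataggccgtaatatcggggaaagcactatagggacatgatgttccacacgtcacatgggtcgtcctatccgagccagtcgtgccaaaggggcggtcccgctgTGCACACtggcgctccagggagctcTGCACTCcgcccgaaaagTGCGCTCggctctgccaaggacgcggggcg
Mt2: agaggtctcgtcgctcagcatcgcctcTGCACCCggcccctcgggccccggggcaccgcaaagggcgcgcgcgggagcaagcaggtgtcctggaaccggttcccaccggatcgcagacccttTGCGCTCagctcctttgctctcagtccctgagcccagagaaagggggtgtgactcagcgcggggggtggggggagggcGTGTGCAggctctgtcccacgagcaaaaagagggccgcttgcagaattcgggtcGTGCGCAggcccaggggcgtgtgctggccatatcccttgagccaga
Mt1 held 3 matches and Mt2 held 4. At least 1 match was found in 25.7% of 32851 promoters of this length and 4 or more in 0.517%. Of the 11 metal list genes with a promoter in the table, 9 held a match. Whether these matches play a part in the level of either gene was not tested.

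Targets of NRF2, the regulator of antioxidant defence, had a median of 0.85, with 3 of 17 called, beside 3.38% of all genes. Catalase (Cat) rose from between 4.59 and 7.58 to 8.68, 8.45, 8.63 and 8.96 (2.29 ± 0.52, limma adjusted p = 0.0296). Transketolase (Tkt) rose by 2.38 ± 0.60 and the glutathione transferase Gsta4 by 2.22 ± 0.56 (limma adjusted p = 0.04019 and 0.04222). The targets Nqo1 (-0.23), Hmox1 (-0.09) and Gclm (-0.38) were not called, and the list's median was 0.08 with array spread in the model, with 0 genes called. The core of the antioxidant response element, TGACNNNGC on either strand, stood in 12.4% of the 32851 promoters and in those of 6 of 16 genes of the list. It was found 0 times in the windows of Cat and Tkt.

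Of 29 replication genes, 3 rose, with a median of 0.19, beside 2.89% of all genes called higher. The mean over the 29 replication genes lay between 4.51 and 4.99 on normal arrays and between 5.06 and 5.60 on H2 arrays, without overlap. This median was 0.14 with array spread in the model, with 0 genes called, and 0 were called without H2 replicate 6 or without H2 replicate 7. The helicase subunit Mcm4 lay between 3.18 and 6.15 (median 4.91) on normal arrays and at 7.04, 6.57, 7.62 and 7.51 in H2 (2.49 ± 0.46, limma adjusted p = 0.01121). Rrm2, a subunit of ribonucleotide reductase, rose by 2.41 ± 0.52 (limma adjusted p = 0.02242) and Mcm6 by 2.69 ± 0.66 (0.03642), whereas Mcm2 differed by 0.19 and Mcm3 by -0.70. The 2 other probe sets of Rrm2 differed by -0.12 and 0.93, and those of Mcm6 by -0.62 and 0.54. Of 25 mitosis genes, 19 were above 0 (median 0.27), beside 8424 of all 18193 genes. The cyclin Ccnb2 alone was called, which is 4% of the list and near the 3.38% over all genes. Its H2 values were 4.49, 3.52, 2.78 and 3.42 and its normal range 2.17 to 3.00, near background (1.03 ± 0.25, limma adjusted p = 0.03732). Mki67, a marker of cycling cells, differed by 2.37 ± 0.67 and was not called (0.06508), with values from 3.31 to 7.97 on normal arrays and at 7.17, 8.43, 6.83 and 9.18 in H2. Of the brakes on the cycle, Rb1 rose by 1.19 ± 0.25 (limma adjusted p = 0.02078), to 4.13, 4.37, 4.81 and 4.06 from between 2.29 and 3.64, while its second probe set differed by -0.43. Cdkn2a (-0.23), Cdkn1a (-0.36) and Cdkn2b (-0.02) were not called.

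Further calls fell in lists of signalling and transport genes. Of 19 Wnt pathway genes 2 rose and 1 fell. Of 10 ion transport genes 1 rose, and of 18 inflammatory mediators 3 rose. Over all genes 3.38% were called. Nlk, a kinase that limits Wnt signalling, lay between 2.95 and 5.92 on normal arrays and at 7.87, 7.18, 7.34 and 6.63 in H2 (2.32 ± 0.44, limma adjusted p = 0.01265). The ligand Wnt5a rose by 0.85 ± 0.20 (limma adjusted p = 0.03524), and Nkd1, a target and inhibitor of the pathway, fell by 1.30 on the log2 scale (0.03663). Of 18 Notch pathway genes, Notch2 was called, at 10.13, 9.30, 9.59 and 9.69 above a normal range of 6.63 to 9.09 (1.77 ± 0.46, limma adjusted p = 0.04574), and its second probe set differed by -0.06. The target Hes1 differed by 0.07. The chloride cotransporter Slc12a2 rose by 2.46 ± 0.53 (limma adjusted p = 0.02188), and its 2 other probe sets differed by 2.29 and 2.55. Among inflammatory mediators the antibody carrier Pigr rose by 0.95 ± 0.20 (limma adjusted p = 0.01893), the iron-binding Lcn2 by 1.82 ± 0.45 (0.03907) and the alarmin Il33 by 1.76 ± 0.46 (0.04819), whereas Cxcl1 (-1.05), Il6 (-0.15) and Tnf (-0.04) were not called.

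The H1 arrays allowed 1 further question, whether the changes in H2 differed from those in H1, the other lesion subtype. Both are set against the same normal arrays, so their differences from normal are not independent. Of the 525 genes called higher in H2, 475 were on the same side of normal in H1, with a median of 0.59, and of the 90 lower genes 76, with a median of -0.16. These genes were chosen on the shared normal arrays, which favours the same side in H1, so these counts are a description. The difference between H2 and H1 was called for 1 gene of 18193, or 0.0055%, with 2240 at an unadjusted p under 0.05. That gene was Muc4, at 6.88, 6.77 and 6.40 on the H1 arrays, which lie above the normal maximum of 6.26 and below all H2 arrays (H2 minus H1 2.01, limma adjusted p = 0.0349). Meg3 lay at 8.00, 8.10 and 8.28 in H1, below every H2 array (2.33 ± 0.40, limma adjusted p = 0.2348). For Mpzl2 the H1 values, 6.89, 5.73 and 5.85, spanned those of H2 (H2 minus H1 -0.11). For Eln the H1 values, 8.45, 8.40 and 8.15, lay among those of H2 (-0.04). Ldhb, at 5.17, 6.49 and 6.49 in H1, lay within the normal range there (H2 minus H1 2.47, limma adjusted p = 0.28).

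The genes called higher also moved with array spread inside the groups. The median shift of the 525 genes from the normal mean was 1.63, 1.55, 1.89 and 2.06 on the H2 arrays. On the 3 normal arrays of widest spread, replicates 1, 3 and 6, it was 0.50, 0.55 and 0.41, and on the 2 narrowest, replicates 2 and 8, it was -0.55 and -0.32. On the H1 arrays, of which H1 replicate 2 was the narrowest, it was 0.19, 0.77 and 0.86. These genes were chosen on the H2 and normal arrays, so the shifts of those arrays are a description. With array spread as a covariate 57 genes were higher and 98 lower, and 41 and 10 of these were among the 525 and 90. Against only the 3 widest normal arrays 31 were higher and 36 lower, and 29 and 5 of these were among them. The part of array spread in the calls was not tested.

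**Figure D4:**
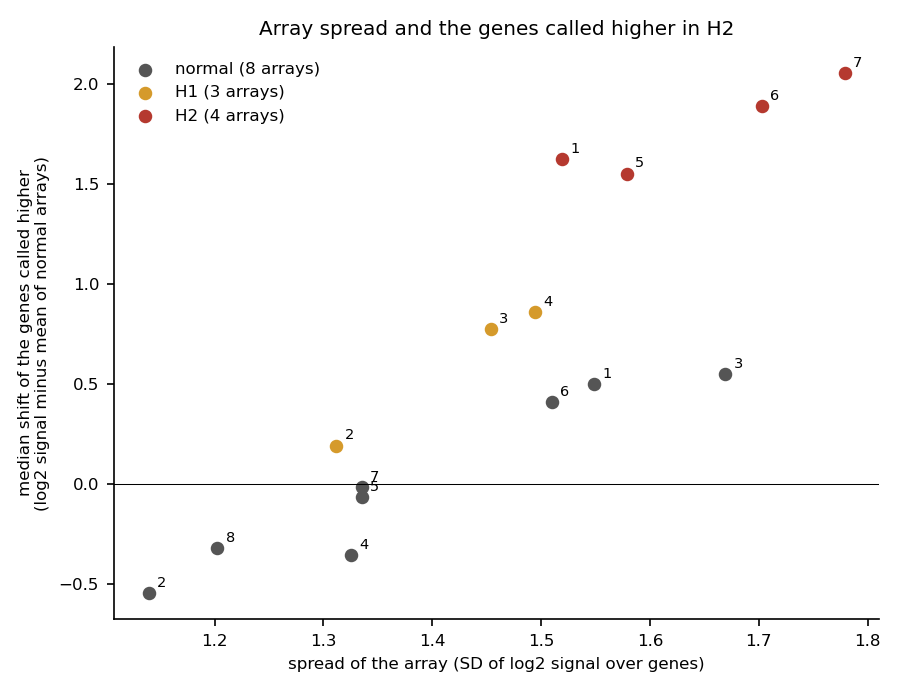
Median shift of the 525 genes called higher, as log2 signal minus the mean of the normal arrays, against the SD of log2 signals over genes, for each of 15 arrays labelled by replicate. The H2 arrays lie at 1.55 to 2.06, and the highest normal array is replicate 3 at 0.55. The genes were chosen for being higher on these H2 arrays, so this gap is a description.

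**Figure D5:**
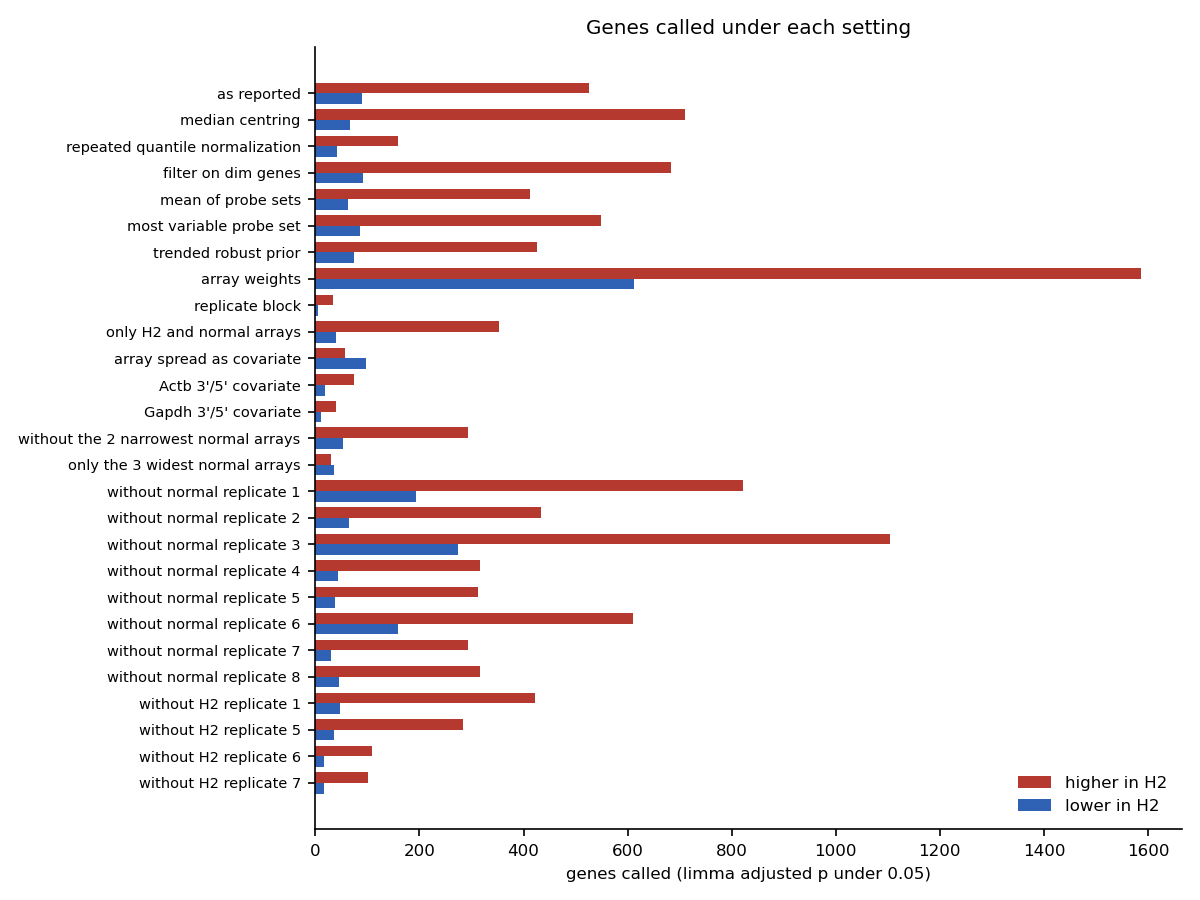
Number of genes called higher and lower in H2 (limma adjusted p under 0.05) under each setting, with bars that start at 0. The count of higher genes runs from 31 against the 3 widest normal arrays to 1586 with array weights, beside 525 as reported.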

How the data were processed

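RNA from laser-captured cells of mouse lung was amplified and hybridised to Affymetrix arrays, per the labels' protocols. The log2 values are used as deposited; affy and RMA are given, without versions, per the submitters' processing notes. The table holds 45101 probe sets. Of these, 34945 carry 1 gene symbol, 932 several and 9160 none in the platform annotation, and 64 are controls. For each of 18193 genes the probe set of highest mean over all arrays was used. Other probe sets are given for only part of the genes. Groups were taken from the source names and titles, and normal, H1 and H2 arrays were fitted together with limma 3.58.1 in R 4.3.3 (lmFit and eBayes, Benjamini-Hochberg adjustment over all genes), after the procedure was tested on simulated data. The number of arrays limits the precision. Alternatives covered centring, normalization, dim genes, choice of probe set, the prior, weights for arrays, a block for replicate numbers, array spread and 3′ to 5′ probe ratios as covariates, and omission of arrays. Named genes were the 25 higher and 15 lower called genes of largest difference without overlap between groups, up to 4 called genes of lowest p in each list (the 2 of lowest p where fewer than 2 were called), and Meg3 and Ddr1, with predicted, immune receptor and sex-linked marker genes left out. Other genes stand as examples of their list, picked with their values in view. The members and lists were chosen with earlier results of these data known. Deviations of H2 arrays from their group mean correlated with those of the same-numbered normal array at -0.1085, 0.1435, 0.1618 and -0.0951. The medians with the other normal arrays were 0.0231, -0.0054, -0.0102 and -0.0811. The same number gave the highest correlation for 0 of 4 arrays, so the numbers were not taken as pairs. These correlations cannot exclude pairing by section. Genes that this rule names but that were not called are in part given only through their list's counts, and 1 further gene is not reported here.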

Additional observations from a re-analysis of the deposited data

Results flagged for a closer look

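In 18 of 318 groups of 4 to 8 arrays tested, 1 array stood far from the others by Dixon's criterion, which chance meets in about 1 group of 20. Among normal arrays, replicate 1 was the highest for Meg3 (6.03) and Dsp (9.24) and the lowest for Zbtb20 (6.62). Normal replicate 3 was the highest for Myh7 (8.26), Cd74 (9.16), Slc16a1 (5.57) and Lcn2 (5.25). Normal replicate 2 was the lowest for Elovl1 (2.99), Col1a2 (3.95), Cdh1 (4.25), Rpl4 (4.11) and Cstb (6.12) and the highest for Mpzl2 (5.01). Among H2 arrays, replicate 7 was apart for Clu (11.08) and Syp (4.81), replicate 6 for Mpzl2 (6.63) and Creld2 (7.11), and replicate 5 for Cacna2d2 (4.7).

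Muc4 differed between the lesion subtypes, with H2 above H1 by 2.01 in limma. Of 10092 probe sets with several gene symbols or none, which the gene counts do not use, 72 were called higher and 56 lower in H2, or 1.27%, whereas 2.26% of the 34945 probe sets with 1 symbol were called.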

How the results depend on the processing

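The counts of 525 higher and 90 lower genes depended on the setting. They were 159 and 42 after repeated quantile normalization, 1586 and 613 with array weights, and 352 and 39 with only H2 and normal arrays. With array spread as a covariate they were 57 and 98, with the Actb 3′ to 5′ ratio 74 and 18, and with the Gapdh ratio 39 and 10. Without the 2 narrowest normal arrays they were 293 and 54. Against only the 3 widest normal arrays, chosen after seeing the data, they were 31 and 36. With a replicate block they were 34 and 5, although 0 of 4 numbers correlated best with their own. When 1 array was left out they ranged from 102 to 1104 higher and from 16 to 274 lower. Centring (711 and 67), the dim gene filter (684 and 91), the mean of probe sets (412 and 63), the most variable probe set (548 and 86) and a trended robust prior (425 and 74) kept both counts within 1.5 times. Of the named genes that were called, Med1 reversed, to 0.1996 with the most variable probe set. Among those not called, Reln (-0.79 to 0.04), Hba-a1 (-0.39 to 0.04), H2-Aa (1.33 to -0.10), Cd74 (0.76 to -0.75), Hmgcs1 (1.93 to -0.11) and Hprt (1.11 to -0.36) changed sign with array spread as a covariate. The causes were not tested. Low signals limit the size of differences near background.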
